A study of Mus musculus with 8 samples.

Results

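A set of mature neutrophils that carried transcripts of inflammatory mediators was examined in the arthritic paw joints of mice. A mature neutrophil was a cell with at least 5% of its unique molecular identifiers (UMIs, each counting 1 captured transcript) from S100a8 and S100a9, under 3% from the granule genes Camp, Ngp and Ltf, under 5 UMIs of the interferon genes Rsad2, Isg15, Ifit1 and Ifit3, and under 5 UMIs of the stefin genes Stfa1, Stfa2l1, BC100530 and Gm5483. It was counted as a member when it also held at least 4 UMIs in all of Tnf, Ccrl2, Cxcl2, Csf1 and Gadd45b, called the 5 rule genes below. Of 10256 cells kept, 6578 were neutrophils by the S100a8 and S100a9 limit, 3484 were mature and 2172 were members, which is 21.2% of the cells kept, 33.0% of the neutrophils and 62.3% of the mature neutrophils. The other 1312 mature neutrophils, with 0 to 3 UMIs of the 5 rule genes, served as their reference. The name under which these cells had been proposed put Tnf first, but only 217 members (9.99%) held a Tnf UMI, whereas 2117 members (97.5%) held a Cxcl2 UMI. They are therefore called Cxcl2-high neutrophils here, after the gene that led them.

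The cells came from 4 mice given MCTR3-reprogrammed monocytes (Mono+MCTR3) and 4 mice given vehicle-treated monocytes (Mono), all C57BL/6 and, by the study's methods, 10 weeks old. Both groups had received arthritogenic serum of K/BxN mice on days 0, 2 and 9, and on day 12 bone marrow monocytes taken from arthritic mice and kept for 90 min with 1 nM MCTR3, a lipid mediator of the maresin conjugate family, or with vehicle. On day 22 the hind paws were digested, dead cells were removed, and CD45+ leukocytes were sorted and sequenced from transcript 3′ ends. Neither group is free of arthritis or of transferred monocytes, and the transferred cells were not told apart from the host's here. The tables held 5151 barcodes of Mono+MCTR3 and 5387 of Mono, of which 5015 and 5241 were kept, with 1731045 to 6009009 UMIs per Mono+MCTR3 mouse and 2602412 to 3832301 per Mono mouse. The barcode suffix separated 4 mice within each group but did not link them to the labelled animals, and the mouse numbers below are those of the suffix. Pairs of mice shared 0 to 7 barcodes among all cells and at most 1 among the Cxcl2-high neutrophils. With 1 suspension per mouse, a p-value covers the spread between mice together with that of their preparation.

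Neutrophils are the first leukocytes to enter an inflamed joint, and once there they can amplify their own recruitment. Cxcl2 encodes a chemokine that draws further neutrophils through the receptor Cxcr2. Its gene, like Tnf and many cytokine genes, is switched on through the transcription factor NF-κB, which the inhibitor IκBα (Nfkbia) holds in the cytoplasm until a receptor signal leads to its destruction. NF-κB then drives genes for its own restraint, among them Nfkbia and Tnfaip3 (A20), so RNA of these inhibitors is widely read as a trace of recent NF-κB activity.

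The promoters of the genes that lead this account were read from RefSeq (build GRCm38.p6), from 250 bases before to 50 bases after each start, and searched on both strands for the NF-κB consensus. They are printed because Cxcl2 supplies most of the UMIs that define these cells, and because Nfkbia and Ier3 follow it below. Each is on the gene's own strand, 5′ to 3′, with the consensus match in capitals. For Cxcl2 (gene at chr5:90903871-90905938, plus strand) the 250 bases before the RefSeq start are given, chr5:90903649-90903898, which reach past the GENCODE start of the gene given here, and for the others the match with 15 bases on either side.
Cxcl2: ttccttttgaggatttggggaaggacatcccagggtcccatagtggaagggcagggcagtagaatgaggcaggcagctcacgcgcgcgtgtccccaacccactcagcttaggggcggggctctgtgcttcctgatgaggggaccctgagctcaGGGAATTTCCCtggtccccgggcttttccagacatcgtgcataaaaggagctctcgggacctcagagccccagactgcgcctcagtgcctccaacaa
Cxcl3, chr5:90786013-90786053, plus strand: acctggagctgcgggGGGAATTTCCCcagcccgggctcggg
Csf1, chr3:107760599-107760638, minus strand: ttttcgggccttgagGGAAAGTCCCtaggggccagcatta
Ccrl2, chr9:111057550-111057589, minus strand: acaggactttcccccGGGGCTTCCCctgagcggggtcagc
Nfkbia, chr12:55492652-55492691, minus strand: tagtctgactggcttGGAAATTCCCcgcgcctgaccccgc
Ier3, chr17:35821606-35821645, plus strand: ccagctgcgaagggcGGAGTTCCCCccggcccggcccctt
The match began 97 bases before the start in Cxcl2, 73 in Cxcl3, 154 in Csf1, 56 in Ccrl2, 29 in Nfkbia and 92 in Ier3. In Cxcl2 and Cxcl3 the marked 11 bases were the same. In Ccrl2 the match lay in 1 of its 3 windows.

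Of the 5 rule genes, 3 held the consensus in a window, and the letters were not found in those of Tnf and Gadd45b. All windows of the table held it in 4.51% of cases, and the 2496 genes measured here that had a window in 6.85%. Among the genes described below as higher in Cxcl2-high neutrophils, 6 of 23 with a window held it (26.1%), namely Nfkbia, Tnfaip3, Sod2, Ier3, Irf1 and Nfkbie. The AP-1 motif TGANTCA was found in 5 of the same 23 (21.7%) and in none of the 5 rule genes, against 6.81% of the 2496 genes. Those 5 were Tnfaip3, Nfkbie, Zeb2, Bcl2a1b and Bcl2a1d. Bcl2a1b and Bcl2a1d are near-identical copies, and not every window of Zeb2 held the motif. A match is a description of the letters and not a bound site.

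Cxcl2 dominated the UMIs that placed a cell in this set. It gave 28217 UMIs, or 81.1% of those of the 5 rule genes, and was the largest of them in 1950 members (89.8%). Ccrl2, an atypical receptor that binds chemerin, gave 9.34%, Gadd45b, a stress-response gene, 6.87%, Csf1, the growth factor of macrophages, 1.65%, and Tnf, the cytokine, 1.02%. These are shares of captured 3′ UMIs, which count each molecule once whatever its length, and capture can differ between genes. Without Cxcl2 1542 members (71.0%) would have missed the limit of 4 UMIs, against 127 without Gadd45b, 102 without Ccrl2, 46 without Csf1 and 9 without Tnf. A UMI of Gadd45b was found in 46.5% of the members, of Ccrl2 in 43.4% and of Csf1 in 17.4%. Only 1 of the 5 genes was detected in 667 members, 2 in 771, 3 in 515, 4 in 184 and all 5 in 35. The median member held 11 UMIs of the 5 genes and the richest 187, among a median of 1531.5 UMIs and 531 genes. The other mature neutrophils were of like depth, with medians of 1497 UMIs and 507.5 genes.

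The levels of the rule genes per mouse are given as CPM, the UMIs of a gene scaled to a total of 1000000 UMIs over the Cxcl2-high or the other mature neutrophils of that mouse. Since the 5 genes chose the cells, the differences are no finding and carry no test. Cxcl2 stood at 8504, 6733, 7269 and 7584 CPM in Cxcl2-high neutrophils of the Mono+MCTR3 mice and at 5798, 6812, 10199 and 9977 CPM in those of the Mono mice. The highest values were thus in Mono mice 3 and 4 and the lowest in Mono mouse 1, on either side of all Mono+MCTR3 mice. Over the 8 mice it averaged 7859 ± 1577 CPM in Cxcl2-high neutrophils and 500.2 ± 86.0 CPM in other mature neutrophils (SD, n = 8). Ccrl2 averaged 910 ± 243 CPM and 72.2 ± 29.8 CPM in the same order of classes, Gadd45b 678 ± 181 CPM and 124 ± 57.6 CPM, and Csf1 154 ± 51.2 CPM and 38.9 ± 31.7 CPM. Tnf was the scarcest, at 99.0 ± 43.3 CPM and 7.98 ± 4.59 CPM. For each of the 5 genes the lowest Cxcl2-high value lay above the highest value of the other mature neutrophils.

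**Figure D1:**
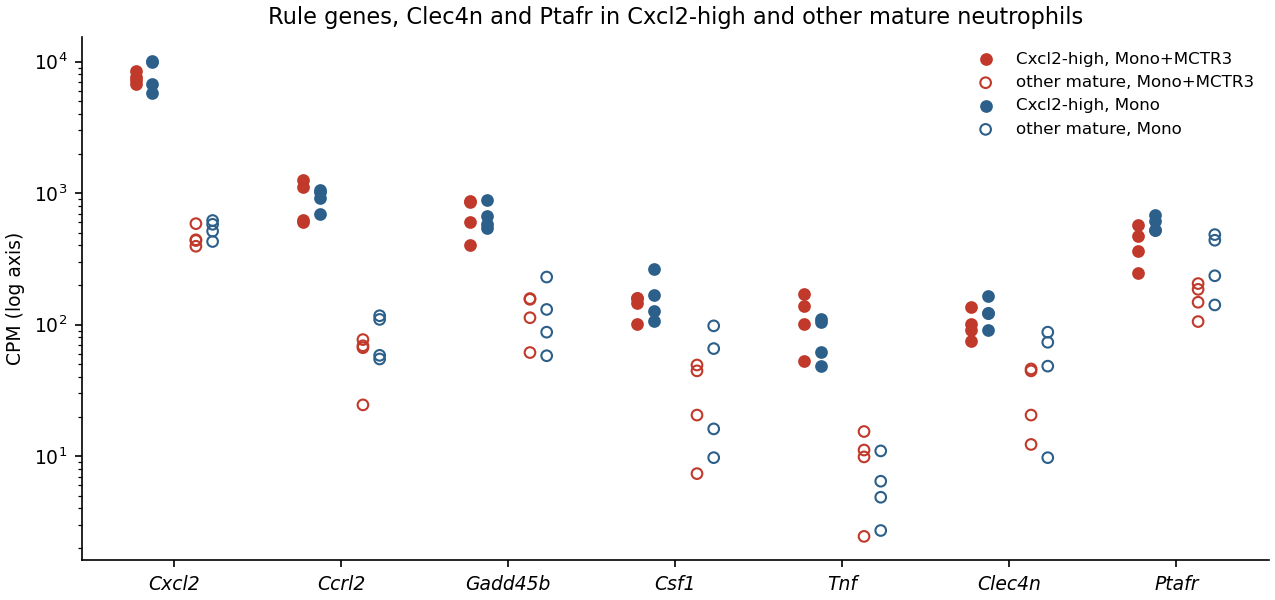
Level of the 5 rule genes, Clec4n and Ptafr in CPM (log axis), 1 point per mouse, in Cxcl2-high neutrophils (filled) and other mature neutrophils (open) of Mono+MCTR3 mice (red) and Mono mice (blue). Filled and open points are apart for the 5 rule genes, which chose the cells, and overlap for Clec4n and Ptafr, while the red and blue points of every gene overlap.

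Free RNA in the droplets can place a transcript in a cell that does not make it. The rule genes were also read in 1384 B cells, taken as a background, which held a median of 2250.5 UMIs. A Tnf UMI was found in 0.361%, a Csf1 UMI in 1.01%, a Ccrl2 UMI in 2.17%, a Cxcl2 UMI in 12.6% and a Gadd45b UMI in 14.1%. Only 16 of the B cells (1.16%) reached 4 UMIs of the 5 genes. Gadd45b averaged 94.9 ± 37.2 CPM in B cells and 29.0 ± 9.62 CPM in neutrophils with at least 3% granule RNA. Whether B cells make any of these transcripts was not tested. At an equal depth of 1000 UMIs per cell, Cxcl2 was detected in 94.7% of 1938 Cxcl2-high neutrophils, 37.6% of 1159 other mature neutrophils and 6.02% of 1379 B cells. Tnf was detected in 7.33%, 0.69% and 0.145% of the same cells, Ccrl2 in 36.9%, 5.69% and 0.870%, and Gadd45b in 37.8%, 11.1% and 6.16%. As the rule chose both classes of neutrophils by these genes, the shares describe the classes and are no evidence about free RNA.

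The 5 genes tended to occur in the same cells. Each was left out in turn, cells were chosen by at least 3 UMIs of the other 4, and the level of the gene left out was read in the cells chosen and in the remaining mature neutrophils, as a fold with 10 CPM added to both. The median fold over 8 mice was 5.67 for Ccrl2, 4.07 for Tnf, 3.24 for Gadd45b, 2.41 for Csf1 and 2.38 for Cxcl2, and each gene was higher in the chosen cells of 8 of 8 mice. Cxcl2 was also present in the remaining cells, at 9105 CPM in the 862 chosen and 3812 CPM in the other 2622. Among cells of 1500 to 3000 UMIs the folds were 8.94, 5.99, 4.34, 3.05 and 2.51 in the same order of genes, so they were no smaller in cells of similar depth.

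The limit of 4 UMIs cut a continuous range. There were 215 mature neutrophils with 3 UMIs of the rule genes, just outside, and 204 with 4 UMIs, just inside. Nfkbia stood at 1081 ± 434 CPM in the cells with 4 UMIs and 711 ± 562 CPM in those with 3 UMIs (SD, n = 8 mice). From 0 through 1 to 3, 4 to 6, 7 to 12, 13 to 24 and 25 or more UMIs of the rule genes, in 425, 887, 565, 664, 559 and 384 cells, Nfkbia averaged 278, 590, 1139, 1870, 3103 and 4838 CPM. Tnfaip3, whose product A20 dampens NF-κB signalling, averaged 17.2, 40.3, 87.2, 111, 189 and 264 CPM over the same steps, and Nfkbiz, an atypical IκB that helps to switch on secondary response genes, 81.8, 112, 196, 294, 439.5 and 573 CPM. Each step of these 3 genes was above the one before it.

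Other genes outside the rule were read over the same steps. Acod1, which makes the metabolite itaconate, averaged 317, 481, 666, 1012, 1287 and 1767 CPM over the 6 steps. The chemokine Ccl3 did not rise at every step, at 301, 423, 589, 576, 860 and 2064 CPM, and Cxcl3, which encodes another ligand of Cxcr2, went through 5.07, 12.4, 21.8, 25.6, 51.8 and 123 CPM. Il1b was abundant at every step, at 2958 CPM in cells without a rule gene UMI and 6848 CPM at 25 or more. The sensor Nlrp3 averaged 96.5 and 399 CPM at these ends, and Il1rn, the antagonist of the interleukin 1 receptor, 168 and 700 CPM. The cytokine Osm was not graded, at 432, 356, 264, 307, 307 and 427 CPM. Cxcr2 stayed between 386 and 493 CPM over all steps, and the granule gene Ngp was highest in cells with no rule gene UMI (4520 CPM) and 1589 CPM at 25 or more. The median UMIs per cell ran over the steps as 1620, 1464, 1388, 1424.5, 1598 and 1732, so the top step was also the deepest.

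**Figure D2:**
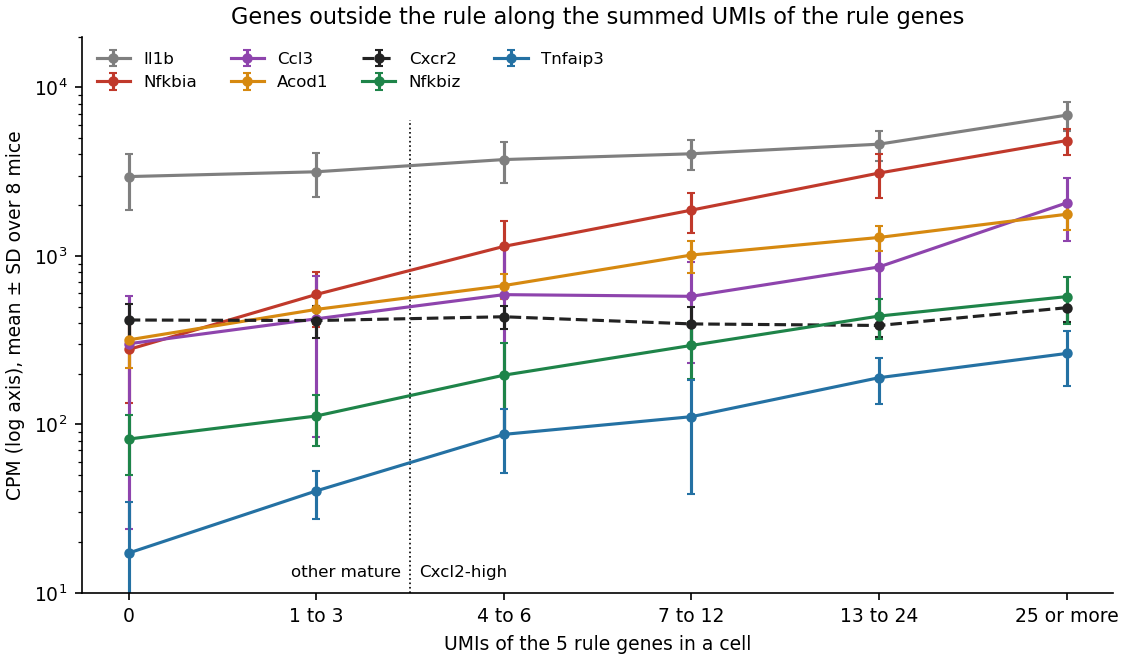
Level of 7 genes outside the rule in CPM (log axis) against the summed UMIs of the 5 rule genes in a mature neutrophil. Points are means and bars SD over 8 mice, bars that run below 10 CPM are clipped by the axis, and the dotted line marks the limit of 4 UMIs; Nfkbia stands at 278 CPM at the left end and 4838 CPM at the right end, while Cxcr2 (dashed) stays between 386 and 493 CPM.

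Cxcl2-high and other mature neutrophils of the same mice were next compared over all genes outside the rule with at least 100 UMIs. A gene was called when its median fold over the 8 mice, with 10 CPM added to both levels, was at least 2 and its direction was shared by all 8. As the cells were chosen by expression, this is a description without a test. Of 3139 genes, 26 were called higher (0.828%) and 1 lower (0.0319%), and the median over all genes was 0.07 on the log2 scale. At any fold, 187 genes were higher in Cxcl2-high neutrophils of all 8 mice and 43 were lower in all 8.

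Genes of NF-κB feedback formed the largest group. Of the 22 listed genes 20 were measured, 9 were called higher and 20 had a positive median, with a list median of 1.13 on the log2 scale beside 0.07 over all genes. Nfkbia stood at 3331, 2017, 1628 and 2945 CPM in Cxcl2-high neutrophils of the Mono+MCTR3 mice and at 2614, 2762, 2436 and 3253 CPM in those of the Mono mice. In other mature neutrophils of the same mice it stood at 697.5, 213.6, 308.1 and 318.3 CPM in Mono+MCTR3 and at 512.7, 723.5, 537.2 and 565.1 CPM in Mono. No mouse's other mature neutrophils reached the lowest Cxcl2-high value, and the median fold was 5.08 (3.78 to 9.06). Tnfaip3 had a median fold of 3.77, at 160 ± 57.3 CPM in Cxcl2-high and 32.5 ± 8.95 CPM in other mature neutrophils (SD, n = 8), and Nfkbiz 3.41, at 370 ± 130 CPM and 102 ± 26.3 CPM. Nfkbie, a further IκB, reached 2.20 and Birc3, an inhibitor of cell death that acts in the TNF receptor complex, 2.20.

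The same list held survival genes. Bcl2a1b, of the Bcl2 family that opposes apoptosis, had a median fold of 3.22 (lowest, median and highest mouse 133, 183 and 287 CPM in Cxcl2-high and 39.0, 48.1 and 90.3 CPM in other mature neutrophils), and Bcl2a1d had 2.24. These are near-identical copies, and how reads that match both were counted was not examined, so their separate levels are uncertain. Sod2, which encodes the mitochondrial superoxide dismutase, had 3.34 and Ier3, an early response gene that modulates survival, 2.31. Of the abundant members that were not called, Tnfaip2 stood at 1.77 and Zfp36, which destabilises cytokine mRNAs, at 1.36, both higher in 8 of 8 mice. Zc3h12a, which encodes the RNase regnase-1 that also degrades cytokine mRNAs and is outside the list, had 2.30. In the separate list of death and survival genes 0 of 7 were called, with Mcl1 at 1.21 and Gadd45a at 1.18.

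Among cytokines and chemokines 1 of 11 measured genes, Ccl3, was called (2.42; 964 ± 446 CPM in Cxcl2-high and 382 ± 323 CPM in other mature neutrophils). Its levels in Cxcl2-high neutrophils ranged from 363 to 1778 CPM over the mice and overlapped those of the other mature neutrophils, which ranged from 58.9 to 1047 CPM. Within each mouse the Cxcl2-high value was nonetheless the higher one. Il1b (1.52; 4718 ± 838 CPM and 3069 ± 947 CPM) and Ccl4, a chemokine of monocytes and lymphocytes (1.67), were higher in 8 of 8 mice but under the limit of 2. Cxcl3 had a median fold of 2.89 but was higher in 7 of 8 mice, from 190 UMIs in Cxcl2-high and 22 in other mature neutrophils. Ccl6, at a median of 8116 CPM in Cxcl2-high and 7458 CPM in other mature neutrophils, stood at 1.09.

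Of the receptors 2 of 25 were called. Ptafr, the receptor of platelet-activating factor, had 2.22 (499.6 ± 139 CPM in Cxcl2-high and 243 ± 141 CPM in other mature neutrophils). Clec4n, which encodes the fungal sensor dectin-2, had 2.45 (113 ± 29.4 CPM and 42.8 ± 28.1 CPM). Both had been listed as markers of these cells and were not used by the rule. Neither was particular to them. In neutrophils set aside for interferon genes Clec4n averaged 155 ± 57.5 CPM and Ptafr 419 ± 161 CPM. Those set aside for stefin genes had 50.2 ± 16.1 CPM of Clec4n and 267 ± 76.6 CPM of Ptafr. A Ptafr UMI was found in 45.7% of Cxcl2-high and 28.1% of other mature neutrophils, and a Clec4n UMI in 10.7% and 5.64%, so neither separates the classes cell by cell. The related lectins Clec4e (1.80) and Clec4d (1.36) and the decoy receptor Il1r2 (1.78) were higher in 8 of 8 mice without being called. Trem1, an amplifying receptor of myeloid cells, was at 1.00, higher in 4 of 8.

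Further called genes belonged to none of the lists above. Acod1 had a median fold of 2.90 (1163 ± 131 CPM in Cxcl2-high and 426 ± 83.0 CPM in other mature neutrophils), with no overlap between the classes. Ppp1r15a, which relieves the stress-induced block of translation, had 2.64, Nfe2l2, the antioxidant transcription factor NRF2, 2.47, Tgif1, a homeobox repressor, 2.66, Marcksl1, a MARCKS-like actin regulator, 2.60, and Cystm1 2.26. Dusp2, a phosphatase of MAP kinases, was the 1 called of 18 immediate early genes (2.19), while Junb (1.27), Dusp1 (1.28), Btg1 (1.23) and Klf2 (1.12) were not. None of 7 heat shock genes was called (list median 0.12 on the log2 scale), with Hspa8 at 0.938 and Dnaja1 at 0.915. Outside the rule for naming, and named after their values were seen, Rab20, Irf1, Gpr84, Zeb2, Ggct and Herpud1 completed the 26, at 2.05 to 2.24.

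Genes of mature neutrophils and of energy metabolism held no call. Of 17 genes of mature neutrophils 0 were called and 8 had a positive median, beside 1990 of all 3139, with a list median of -0.00 on the log2 scale. Of 12 hypoxia and glycolysis genes 0 were called and the list median was 0.07. A pair of abundant genes was lower in Cxcl2-high neutrophils of 8 of 8 mice without being called, the resistin-like gene Retnlg (0.803) and the glycolytic enzyme gene Gapdh (0.879). Msrb1 (1.05) and G0s2 (1.13) were near 1. Of the 4 interferon genes measured outside the rule, 0 were called. The 1 gene called lower was Serpinb1a, an inhibitor of the serine proteases of neutrophil granules, at 0.469 (27.5 ± 9.21 CPM in Cxcl2-high and 81.2 ± 55.7 CPM in other mature neutrophils). It was no longer called when any 1 of 4 mice was left out (Mono+MCTR3 mouse 2 or 4, Mono mouse 1 or 4). The 7 granule markers of immature neutrophils moved with it, as their summed level was 1083 to 4946 CPM in Cxcl2-high and 2440 to 11156 CPM in other mature neutrophils, with 0 of 7 higher in Cxcl2-high neutrophils. Their part in the call was not tested.

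**Figure D3:**
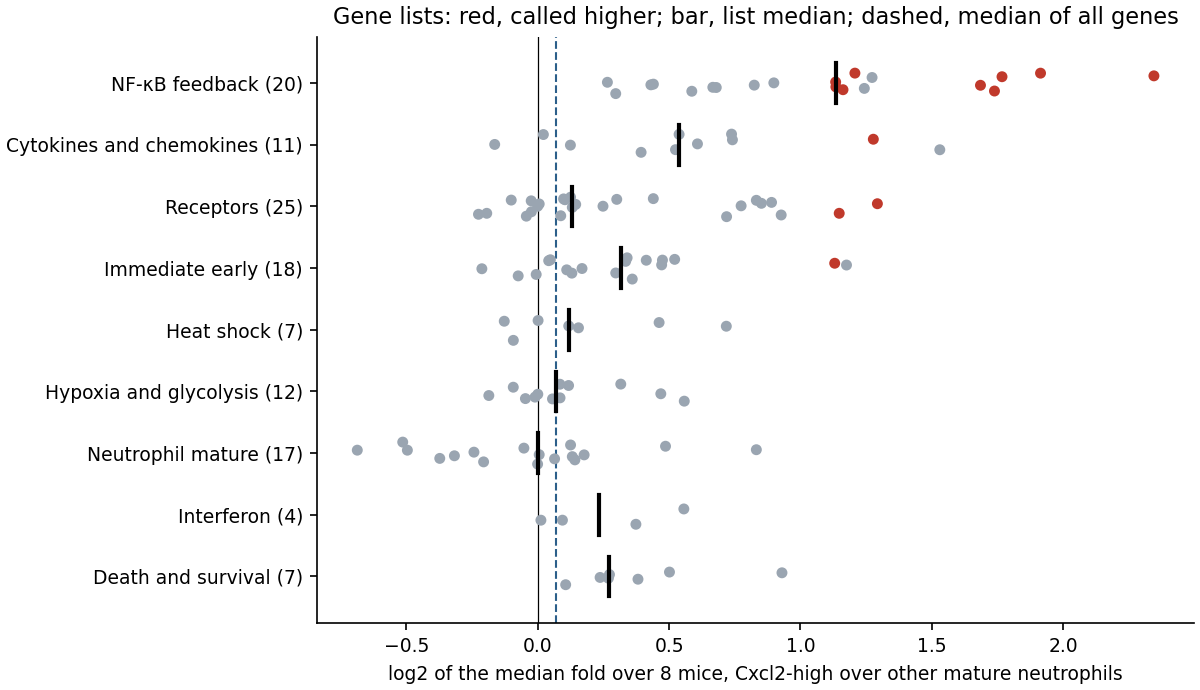
Median fold over 8 mice of Cxcl2-high over other mature neutrophils on the log2 scale, 1 point per measured gene, by gene list with the number of genes in brackets. Red points are called genes, black bars list medians and the dashed line the median of all genes (0.07); the NF-κB feedback list holds 9 called genes of 20 and a median of 1.13, and the list of mature neutrophil genes a median of -0.00.

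Depth and other cells bear on these calls. Among cells of 1500 to 3000 UMIs, where both classes are of similar depth, Nfkbia stood at 7.53, Ccl3 at 5.47 and Ptafr at 3.40, and 19 of the 26 genes were called again. After removal of cells with 2 or more UMIs of markers of other lineages, an alternative added after the data were seen, Nfkbia stood at 4.63 and 20 of the 26 were called, while Serpinb1a stood at 0.569 and so missed the limit of 0.5. That marker set includes Ly6c2, which neutrophils also express. Summed levels of 12 monocyte and macrophage markers were 316.5 to 731.8 CPM in Cxcl2-high and 350.9 to 1201 CPM in other mature neutrophils, lower in Cxcl2-high neutrophils of 8 of 8 mice, with Mrc1 at 0. Most of this sum was Ly6c2, at a mean of 377 of 459 CPM in Cxcl2-high and 657 of 725 CPM in other mature neutrophils. The sum therefore says little about the other markers. By median fold 4 of the 12 were higher in Cxcl2-high neutrophils, and Csf1r averaged 48.2 ± 13.2 CPM there and 34.6 ± 15.3 CPM in other mature neutrophils. Dendritic markers were at 34.4 to 700.0 CPM in Cxcl2-high and 88.8 to 530.8 CPM in other mature neutrophils, higher in Cxcl2-high neutrophils of 5 of 8 mice, with Xcr1 at 0. B cell markers were at 172.2 to 406.1 CPM and 160.8 to 292.8 CPM (higher in 4 of 8), T cell markers at 26.9 to 124.0 CPM and 22.3 to 180.2 CPM (4 of 8) and NK markers at 10.8 to 119.9 CPM and 0 to 219.2 CPM (6 of 8). Mast cell and basophil markers were summed at 0 to 13.4 CPM in Cxcl2-high and 0 to 3.22 CPM in other mature neutrophils, with 14 Mcpt8 UMIs in Cxcl2-high neutrophils and Ms4a2 at 0. Eosinophil markers were at 0 to 12.8 CPM and 0 to 16.4 CPM, with 27 Siglecf UMIs in Cxcl2-high neutrophils and Epx and Prg2 at 0. The part of these cells in the calls was not tested beyond the removal above. All 12 neutrophil markers were detected, at a summed 208888 to 341931 CPM in Cxcl2-high and 239979 to 410208 CPM in other mature neutrophils, lower in Cxcl2-high neutrophils of 8 of 8 mice. Most of this sum came from S100a8 and S100a9, by which the rule chose both classes. They averaged 129651 and 81079 CPM in Cxcl2-high neutrophils, beside a mean sum of 269109 CPM. The sum is therefore no independent sign of identity.

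The members with and without a Tnf UMI were also set side by side, as a description, since Tnf is a rule gene. The 217 Cxcl2-high neutrophils with a Tnf UMI held a median of 1611 UMIs, and the 1955 without one 1527. A Tnf UMI was held by 56 of the 378 members with 5 to 10% of their UMIs from S100a8 and S100a9 (14.8%). At 10% or more it was held by 161 of 1794 (8.97%). The part of this difference in the values below was not tested. Nfkbia averaged 5758 ± 1006 CPM in the cells with Tnf and 2255 ± 572 CPM in those without (SD, n = 8 mice), and the lowest mouse of the cells with Tnf (3843 CPM) was above the highest of the cells without (2905 CPM). The rule used Cxcl2 and Ccrl2 as well, so their values only describe the cells. Cxcl2 averaged 12120 ± 2308 CPM with Tnf and 7341 ± 1578 CPM without, and Ccrl2 1774 ± 539 CPM with Tnf and 814 ± 227 CPM without. The ranges over mice overlapped for Cxcl2 and were apart for Ccrl2. Tnfaip3 averaged 332 CPM with Tnf and 140 CPM without, and Il1b 6512 CPM and 4491 CPM. Among cells of 1500 to 3000 UMIs Nfkbia averaged 5870 ± 1002 CPM in 109 cells with Tnf and 2086 ± 568 CPM in 924 without.

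The rule genes were not confined to these cells. At least 4 UMIs of them were held by 64.7% of the 218 neutrophils set aside for interferon genes, 59.5% of the 1744 set aside for stefin genes and 18.02% of the 1132 with high granule RNA, whose median depth of 4237 UMIs makes the limit easier to reach. Cxcl2 averaged 7859 ± 1577 CPM in Cxcl2-high neutrophils, 5376 ± 1351 CPM in the interferon class, 4653 ± 1230 CPM in the stefin class, 516 ± 160 CPM in the granule class and 65.7 ± 46.0 CPM in B cells (SD, n = 8). Of the 3678 cells kept that were not neutrophils, 495 (13.5%) held at least 4 UMIs of the rule genes. Cxcl2 averaged 831 ± 418 CPM in all 3678, whose median depth was 2478 UMIs. The exclusions of the rule thus left out 141 interferon and 1038 stefin neutrophils that met the limit on the rule genes.

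Whether MCTR3-reprogrammed monocytes changed the number of these cells was asked per mouse. The Mono+MCTR3 mice held 249, 284, 274 and 212 of them and the Mono mice 193, 405, 278 and 277. They made up 18.6%, 14.8%, 27.2% and 27.97% of the cells kept in Mono+MCTR3 mice and 16.7%, 25.7%, 23.6% and 20.8% in Mono mice. The Mono+MCTR3 mice were spread on both sides of the Mono mice, at 22.2% ± 6.46 and 21.7% ± 3.86 (SD, n = 4 each; two-sided exact permutation test p = 0.914, where 0.0286 is the smallest p this design allows). The difference of 0.46 percentage points was smaller than the spread within either group, and it was negative in place of positive when any 1 of 3 mice was left out, at -1.22 without Mono+MCTR3 mouse 3, -1.47 without Mono+MCTR3 mouse 4 and -1.19 without Mono mouse 1. Of the neutrophils they made up 32.3% ± 5.37 in Mono+MCTR3 and 34.4% ± 6.05 in Mono (exact p = 0.571), and of the mature neutrophils 61.5% ± 2.69 and 63.4% ± 8.01 (exact p = 0.657). With cells of at least 1000 UMIs thinned to 1000 UMIs, the share of the mature neutrophils was 47.4% ± 3.64 in Mono+MCTR3 and 53.9% ± 11.6 in Mono (exact p = 0.343). Shallower cells were left out of it, 211 of Mono+MCTR3 and 415 of Mono, with 83 and 151 members among them. No difference in share was detectable with 4 mice per group.

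**Figure D4:**
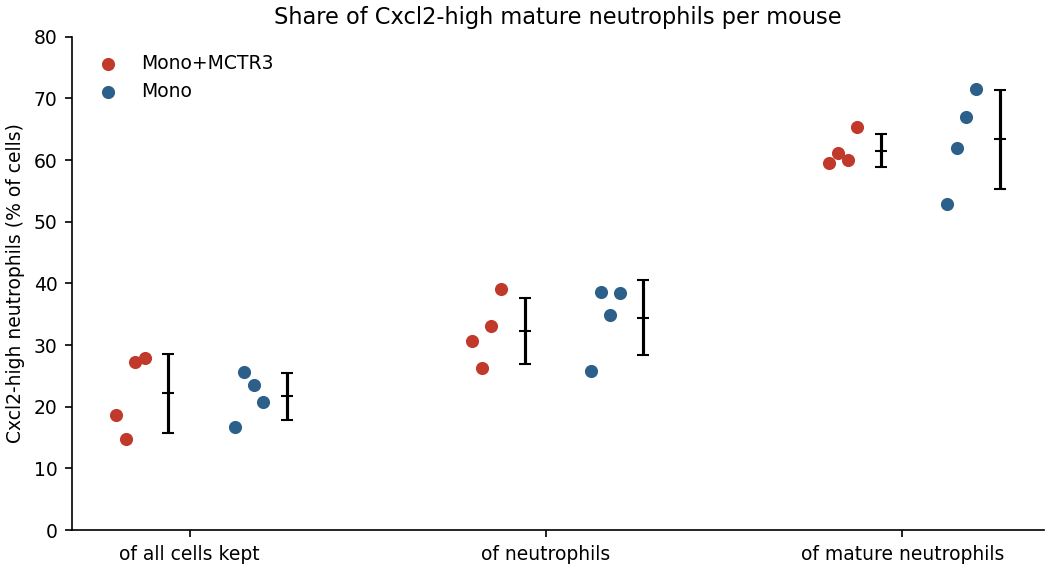
Cxcl2-high neutrophils as a percentage of all cells kept, of neutrophils and of mature neutrophils, 1 point per mouse, in Mono+MCTR3 mice (red) and Mono mice (blue), with mean and SD as bars (n = 4 each). The groups overlap for every denominator, with means of 22.2% and 21.7% of all cells kept, 32.3% and 34.4% of neutrophils and 61.5% and 63.4% of mature neutrophils.

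The neighbouring classes did not pass the test either. All neutrophils made up 67.8% of the cells kept in Mono+MCTR3 and 63.3% in Mono mice (exact p = 0.543). Granule neutrophils made up 11.31% and 10.04% (exact p = 0.686), interferon neutrophils 1.62% and 2.68% (exact p = 0.20), stefin neutrophils 18.9% and 16.2% (exact p = 0.40) and other mature neutrophils 13.8% and 12.6% (exact p = 0.60). After Benjamini-Hochberg adjustment over these 4 classes the adjusted p was 0.686 for each.

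Gene levels within the Cxcl2-high neutrophils were compared between the groups on the UMIs of each mouse, summed over its members and fitted in edgeR (quasi-likelihood test). Of 2700 genes, 0 passed an adjusted p of 0.05 (0%) and 148 had an unadjusted p under 0.05 (5.48%). DESeq2 also called 0, with 66 at an unadjusted p under 0.05. The groups did not overlap in 86 genes (3.19%). Without the filter on low counts 12 of 11112 genes passed (0.108%), of which 11 were higher in Mono+MCTR3 and 1, Wfdc17, was lower (-0.77 on the log2 scale). Among the higher were Cxcl3 (1.52, edgeR adjusted p = 2.94e-05), Ccl4 (0.55, edgeR adjusted p = 0.0231) and the granule genes Ngp (0.59), Camp (0.67) and Lcn2 (0.74). The rest were Xcl1 (2.61, from 36 UMIs), Iglc2 (1.65, from 107 UMIs), Cdkn2d (0.83), Spp1 (0.82), Ifitm6 (0.73) and G0s2 (0.59), and the source of these transcripts was not tested. The rule limits Ngp and Camp from above in every member. The call of these genes thus rests on which genes enter the fit. The granule markers were summed at 1144 to 4946 CPM in Cxcl2-high neutrophils of Mono+MCTR3 mice and 1083 to 3190 CPM in those of Mono mice, and their part was not tested.

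The genes that define the set did not pass the test between the groups. The limit on their sum restricts how far they can differ here. Cxcl2 differed by -0.05 on the log2 scale (SE 0.16), Ccrl2 by 0.03 (SE 0.21), Gadd45b by 0.08 (SE 0.22) and Csf1 by -0.17 (SE 0.23), all with edgeR adjusted p of 0.915 or more. The direction of each of these 4 turned when at least 1 mouse was left out, and that of Ccrl2 also with library totals in place of TMM scaling. Clec4n differed by -0.21 (SE 0.21). Ptafr stood at 470.2, 249.2, 360.5 and 570.3 CPM in Mono+MCTR3 and at 527.1, 680.0, 617.3 and 521.9 CPM in Mono mice, a difference of -0.45 (SE 0.18, edgeR adjusted p = 0.881). Its lowest 3 values were in Mono+MCTR3 mice, and the highest Mono+MCTR3 mouse lay among the Mono mice.

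Tnf stood at 171.6, 139.6, 52.8 and 101.6 CPM in Mono+MCTR3 mice, from 73, 79, 23 and 36 UMIs, and at 61.9, 48.7, 104.6 and 110.9 CPM in Mono mice, from 23, 30, 41 and 51 UMIs. The highest 2 values were in Mono+MCTR3 mice 1 and 2, the groups overlapped, and the difference of 0.64 on the log2 scale (SE 0.35) did not pass (edgeR adjusted p = 0.894). Cells with a Tnf UMI made up from 5.19% (exact 95% interval 3.24 to 7.82) in Mono mouse 2 to 14.9% (10.7 to 19.9) in Mono+MCTR3 mouse 1, intervals that cover counting error only. Pooled over the mice of each group, the excess in Tnf UMIs lay in cells with little S100a8 and S100a9 RNA. The pooled counts below do not show the spread between mice. Members with 5 or more Tnf UMIs numbered 3, 3, 0 and 0 in Mono+MCTR3 mice 1 to 4, and 0, 0, 1 and 1 in Mono mice 1 to 4. Among the 378 members with 5 to 10% of their UMIs from these genes, 141 Mono+MCTR3 cells held 95 Tnf UMIs and 237 Mono cells held 26, and 4 of the Mono+MCTR3 cells held 40 of these 95. Among the 1794 members at 10% or more, Mono+MCTR3 cells held 116 Tnf UMIs and Mono cells 119, with Tnf detected in 8.88% and 9.06%, and the difference in Tnf was -0.05. Of the cells at 5 to 10%, 13 of Mono+MCTR3 and 16 of Mono held 2 or more UMIs of other-lineage markers, and what these cells are was not tested.

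The genes farthest from 0 among those with at least 100 UMIs were Cxcl3 (1.53, SE 0.41), the peroxiredoxin Prdx1 (1.19), the chitinase-like Chil3 (1.08), the haemoglobin Hbb-bs (0.87) and the adaptor Stap1 (0.87) above it, and the granzyme Gzma (-1.11), Phf23 (-0.97), the G-protein regulator Rgs1 (-0.90), Srrd (-0.86) and Nfkbie (-0.86, SE 0.28) below it. None passed, with edgeR adjusted p of 0.881 or 0.894 for each. Cxcl3 stood at 84.6, 125.5, 39.0 and 42.4 CPM in Mono+MCTR3 and at 32.3, 21.1, 38.3 and 23.9 CPM in Mono mice, from 36, 71, 17 and 15 UMIs and from 12, 13, 15 and 11. The groups did not overlap, but Mono+MCTR3 mice 1 and 2 supplied most of the difference and the other 2 were close to the Mono mice. Nfkbie stood at 25.9, 35.4, 18.4 and 33.9 CPM in Mono+MCTR3 and at 56.5, 48.7, 43.4 and 73.9 CPM in Mono mice, again without overlap, from 8 to 34 UMIs per mouse. Erythroid markers were summed at 84.7 to 134 CPM in Mono+MCTR3 and 0 to 115 CPM in Mono mice, beside Hbb-bs, and NK markers at 11.3 to 77.8 CPM and 10.8 to 120 CPM, beside Gzma, and their part was not tested.

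**Figure D5:**
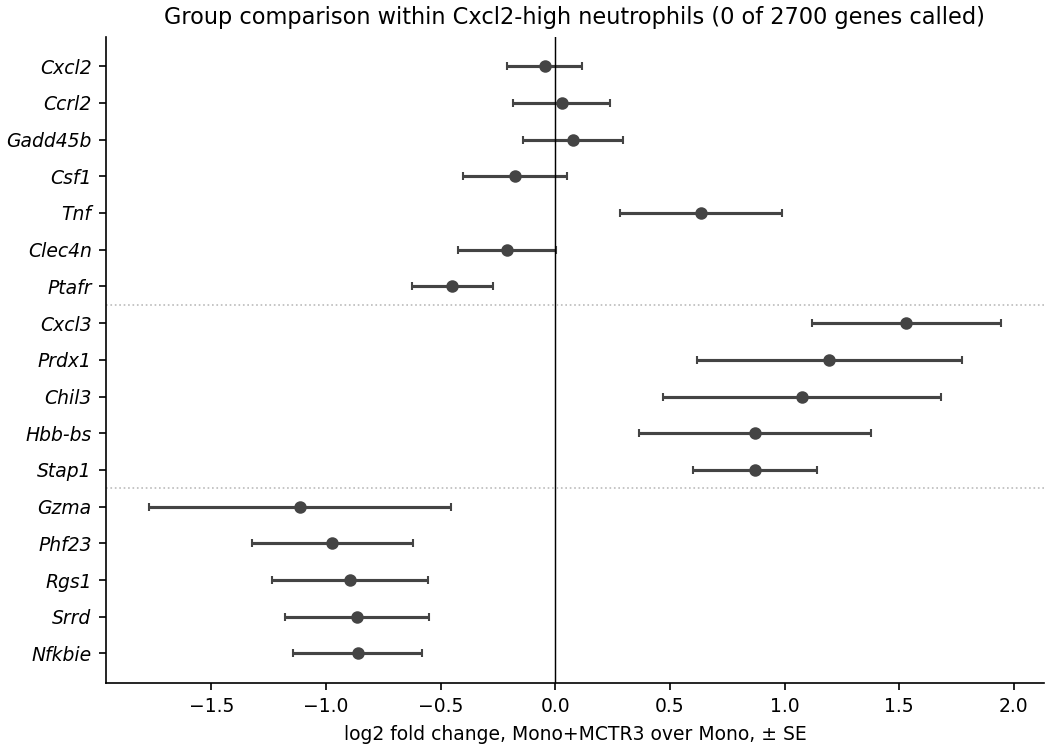
Log2 fold change of Mono+MCTR3 over Mono within Cxcl2-high neutrophils from edgeR, with bars of 1 SE, for the 5 rule genes with Clec4n and Ptafr, then the 5 highest and the 5 lowest genes with at least 100 UMIs. None of the 2700 genes passed the test; Cxcl3 stands highest at 1.53 and Gzma lowest at -1.11.

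The gene lists were divided between directions, as were all 2700 genes, of which 1383 were above 0 and 1317 below it. Of the 20 NF-κB feedback genes tested, 0 passed, 9 were above 0 and 11 below it, with a median of -0.10 on the log2 scale beside 0.01 over all genes. Nfkbia differed by -0.09 (SE 0.19), and its sign turned without Mono+MCTR3 mouse 3 (0.08) or Mono mouse 4 (0.03). Of 11 cytokines and chemokines 0 passed and 8 were above 0 (list median 0.18), with Ccl4 at 0.57 (SE 0.29), Il1b at 0.24 (SE 0.13) and Ccl3 at 0.06 (SE 0.34). Of 7 heat shock genes 0 passed and 6 were below 0 (list median -0.25), with Dnaja1, a co-chaperone, at -0.44 (SE 0.12; 305 ± 10.7 CPM in Mono+MCTR3 and 436 ± 34.4 CPM in Mono, no overlap) and Hspa5, the chaperone of the endoplasmic reticulum, at -0.38 (SE 0.14). Of 24 receptors 0 passed and 17 were below 0 (list median -0.07), with Clec4e at -0.31 (SE 0.10).

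Whether the groups differed otherwise in Cxcl2-high than in other mature neutrophils was tested by the interaction of class and group, with the mouse as a block. Of 2834 genes 0 passed (0%), with 133 at an unadjusted p under 0.05 in edgeR. The lowest adjusted p, 0.216 in edgeR, was that of Spp1, which encodes osteopontin, at 1.77 on the log2 scale (SE 0.37). The interaction was 0.09 for Cxcl2 (SE 0.13) and 0.47 for Nfkbia (SE 0.17, edgeR adjusted p = 0.957).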

How the data were processed

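Paw-joint CD45+ cells of 4 Mono+MCTR3 and 4 Mono mice were analysed from UMI counts per gene and barcode, which the authors deposited in a table for each group after Cell Ranger had aligned the reads to GRCm38 and merged the mice of a group. The submitters' processing notes name Cell Ranger, GRCm38 and edgeR. Their versions were not given in the sources used. A barcode was kept if it had 250 to 3000 genes, 500 UMIs or more and no more than 5% mitochondrial UMIs. The limits removed 40 barcodes for low genes or UMIs, 40 for over 3000 genes and 209 for mitochondrial UMIs, and a barcode can fall under more than 1. Of the gene names, 17 repeat an earlier one and 26 read as dates, with 0.0738% of the UMIs in all. All 10256 kept cells together held 26420247 UMIs.

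Cells were not clustered, and classes follow the limits given above. The members and the gene lists were chosen with earlier results of these data known. UMIs were summed per mouse and class. Groups were compared with edgeR 4.0.16 in R 4.3.3 (filterByExpr, TMM, glmQLFit and glmQLFTest, Benjamini-Hochberg over all genes tested), and shares with a two-sided exact permutation test over mice, in scipy 1.17.1 under Python 3.11.15 with numpy 2.4.6 and pandas 2.3.3. Both were tested on simulated data. Figures were drawn with matplotlib 3.10.9. Exact (Clopper-Pearson) 95% intervals and floors cover counting error only, and a count of 0 among the 2172 members would allow a share of up to 0.138%. Scrublet in scanpy 1.11.5, run per mouse with 0.8% doublets expected per 1000 cells, marked 51 cells (0.497%), 16 of them members. At under 0.5% it cannot be taken to have worked, so the cells were kept and their removal was an alternative.

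Named were the 5 rule genes, Clec4n and Ptafr, the 5 highest and 5 lowest log2 fold changes of the group test among genes with at least 100 UMIs (where fewer than 5 passed), the 15 highest and 10 lowest called folds of the description, and from each list the called genes and the 4 with the most UMIs. Alternatives changed the cell limits, the UMI limit, the S100a8 and S100a9 limit (10%), the exclusions, doublets, depth (1000 UMIs per cell, or cells of 1500 to 3000 UMIs), scaling, filter, tool (DESeq2 1.42.0, edgeR's likelihood ratio test) and mice. Gene coordinates come from GENCODE vM21 and promoter windows from RefSeq; Clec4n, Nfkbiz and Cystm1 were not matched to a window.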

Additional observations from a re-analysis of the deposited data

Results flagged for a closer look

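Of 58 groups of 4 mice examined for a value far from the other 3, 2 were set apart, where chance sets apart about 1 in 20. Gzma, a granzyme of cytotoxic lymphocytes, stood at 54.8 CPM in Cxcl2-high neutrophils of 1 Mono+MCTR3 mouse and at 5.65 to 9.40 CPM in the other 3. Il1b stood at 5258 CPM in Cxcl2-high neutrophils of Mono mouse 3 and at 4059 to 4251 CPM in the other Mono mice.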

How the results depend on the processing

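The difference in the share of cells kept, 0.46 percentage points in the report, was -0.066 with a limit of 2 rule gene UMIs per 1000 UMIs, -0.98 without cells holding 2 or more other-lineage UMIs, -2.16 of neutrophils, -1.86 of mature neutrophils, -0.62 after thinning to 1000 UMIs with a limit of 4, and -1.47 to 2.90 with 1 mouse left out. The lowest exact p over the 21 settings, each with 1 choice changed, was 0.40, and thinning with the mature neutrophils as denominator gave the 0.343 of the report. Leaving out 1 mouse gave -0.32 to 3.02 percentage points for granule and -0.34 to 2.57 for other mature neutrophils. The group test called 0 genes in each of 23 settings but that without a filter on low counts (12 genes), and the interaction called 2 genes without the filter and 0 to 1 with 1 mouse left out (1 without Mono+MCTR3 mouse 3). On the log2 scale, the S100a8 and S100a9 limit of 10% gave -0.055 for Tnf, -0.0011 for Ccrl2 and -0.16 for Ccl3. Library totals gave -0.047 for Ccrl2 and -0.033 for Ccl3, and cells of 1500 to 3000 UMIs -0.11 for Ccrl2. Cxcl2 was 0.0043 with the limit per 1000 UMIs and 0.015 without cells of other lineages. With 1 mouse left out, Tnf was 0.40 to 0.89, Ccrl2 -0.18 to 0.18, Cxcl2 -0.17 to 0.10, Csf1 -0.30 to 0.12, Gadd45b -0.074 to 0.28, Ccl3 -0.19 to 0.50 and Nfkbia -0.26 to 0.080. Genes called higher in Cxcl2-high neutrophils numbered 21 to 39 over 13 settings (22 to 32 with 1 mouse left out). Those called lower were 0 without cells of other lineages, 3 with 1 CPM added and 0 to 1 with 1 mouse left out (0 without Mono+MCTR3 mouse 2 or 4 or Mono mouse 1 or 4). The causes were not tested. The percentage of members with a Tnf UMI stayed at 8.97 to 11.3 over the settings. The groups are different mice and were not compared in pairs, whereas Cxcl2-high and other mature neutrophils were compared within each mouse. The barcode suffixes, which tell the mice apart, are not linked to the labelled mice, and the replicate numbers only name them. Depth limited the description to genes of 100 UMIs or more, which took in 11 of the 20 listed cytokines and chemokines.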
